A study of Homo sapiens with 6 samples.

Results

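The genes described here are 10 members of the NF-kB system: the subunits NFKB1, NFKB2, RELA and RELB, the inhibitors NFKBIA and NFKBIE, the nuclear co-regulator BCL3, the feedback enzymes TNFAIP3 and BIRC3, and the adhesion molecule ICAM1, a classical target. They were chosen by symbol, and each matched 1 of the 34594 entries that every array carries. Expression was measured on 6 Illumina bead arrays hybridised with biotin-labelled cRNA, 1 array per group. The groups were subclone 1E8 without ATP, with 100 µM ATP after 6 h and with the same dose after 12 h, and subclone 2B4 in the same 3 conditions. Both subclones come from PC-3M, which was derived from PC-3, an established line of human prostate carcinoma, and are known for high (1E8) and low (2B4) metastatic capacity. All cultures were kept in RPMI 1640 medium with 10% fetal bovine serum. The titles of the controls state no time, and the control array of a subclone serves both ATP times, so time in culture and ATP cannot be told apart. The fitted errors therefore come from how well subclone and condition add up over the 6 arrays, and a result on 1 array has no replicate check.

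NF-kB is a family of dimeric transcription factors that inhibitor proteins hold in the cytoplasm of resting cells. Signals from cytokine receptors and many other inputs activate the IKK kinases, the inhibitors are degraded, and the dimers enter the nucleus. Among the genes they then induce are their own inhibitors and the enzymes that shut the upstream signal off, which makes the response transient. PC-3 and its derivatives are known for constitutive NF-kB activity. Extracellular ATP acts on P2 receptors at the cell surface, some of which can feed into this pathway.

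Intensities below are the deposited linear values. An entry counted as above the detection limit of an array where it exceeded the peak of that array's dim values by 3 widths of the distribution below the peak. The limit was 29.7 on the 1E8 control array, and 43.6 to 52.5 on the other 5, whose background was wider. The 1E8 control array thus stands apart, with 11236 entries above the limit against 9408 to 9882 on the others, and values without it are given where they change a direction or a call. The differences between ATP effects could not be fitted without it. Of 5 epithelial markers, KRT8, KRT18, KRT19 and EPCAM exceeded the limit on every array and CDH1 on none. Their summed intensity was 2084 to 2412 in 1E8 and 1860 to 2063 in 2B4. The prostate luminal markers KLK3, KLK2 and TMPRSS2 did so on none, nor did any of 3 leukocyte and 2 fibroblast markers. Of the endothelial pair PECAM1 was above it on all 6 (54.3 to 102) and VWF on none. These markers differed between the subclones in both directions. EPCAM was higher on the 1E8 arrays (584, 506 and 439) than on the 2B4 arrays (108, 120 and 132), as was KRT8 (232, 399 and 410 in 1E8, 175, 148 and 155 in 2B4). KRT18 (95.5, 98.1 and 111 in 1E8, 115, 129 and 119 in 2B4) and KRT19 (1182, 1086 and 1458 in 1E8, 1587, 1473 and 1667 in 2B4) were lower on the 1E8 arrays. Their part in the subclone differences below was not tested. In such bulk RNA, fewer cells expressing a gene and less RNA per cell cannot be told apart.

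The promoters show what most of these genes have in common. RefSeq promoter windows (GRCh38.p14, 250 bases before to 50 after a start site) were found for 8 of the 10 members, 12 windows in all. The letters GGAAANNCC, the core shared by many sites that NF-kB binds, stood on either strand in at least 1 window of 7 of the 8 members. Over the 27305 genes with windows the share was 7.61%. By window it was 8 of the members' 12, against 6.26% of all 35116. The fuller NF-kB consensus stood in windows of 6 of the 8 (13.3% of genes), and matches of these patterns can overlap. RELA was the matched member without these letters in its windows. Stretches of 49 bases around the match nearest to the start site are shown for 6 members because they set the motif beside the values that follow, and capitals mark the GGAAANNCC letters or their reverse complement. They lie at chr14:35404802-35404850 on the minus strand (NFKBIA) and on the plus strand at chr4:102501291-102501339 (NFKB1), chr6:137867184-137867232 (TNFAIP3), chr11:102317265-102317313 (BIRC3), chr19:10270914-10270962 (ICAM1) and chr19:44748583-44748631 (BCL3).
NFKBIA: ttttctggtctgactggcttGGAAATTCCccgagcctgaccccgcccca
NFKB1: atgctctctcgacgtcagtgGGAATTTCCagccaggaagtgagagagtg
TNFAIP3: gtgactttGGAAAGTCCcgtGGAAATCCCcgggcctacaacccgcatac
BIRC3: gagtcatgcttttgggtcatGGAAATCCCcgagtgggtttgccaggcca
ICAM1: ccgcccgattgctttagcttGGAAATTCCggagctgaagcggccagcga
BCL3: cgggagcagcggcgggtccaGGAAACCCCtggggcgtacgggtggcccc
NFKBIA and ICAM1 carried the same 9 letters, which stood in NFKB1 as their reverse complement. BIRC3 and the second TNFAIP3 match shared another 9. The match lay 81 bases before the start in NFKBIA, 55 in TNFAIP3, 48 in NFKB1, 105 in BCL3, 186 in ICAM1 and 199 in BIRC3. A match describes the letters of the window and is not evidence of binding. The members were chosen as genes of the NF-kB system, so their share of matches is no result of these arrays.

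Of the 10 members, 4 exceeded the limit on every array (NFKBIA, NFKB1, RELA and BIRC3), BCL3 on 3, ICAM1 on 2, and 4 on none (NFKBIE, NFKB2, RELB and TNFAIP3). Over all named entries 64.0% were above it on none, and nothing is read from the members' count beside it. The plot of intensities by array shows each member with the limits. The 6 members above the limit on at least 1 array were tested together with the other entries that met this filter, 11101 in all.

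**Figure D1:**
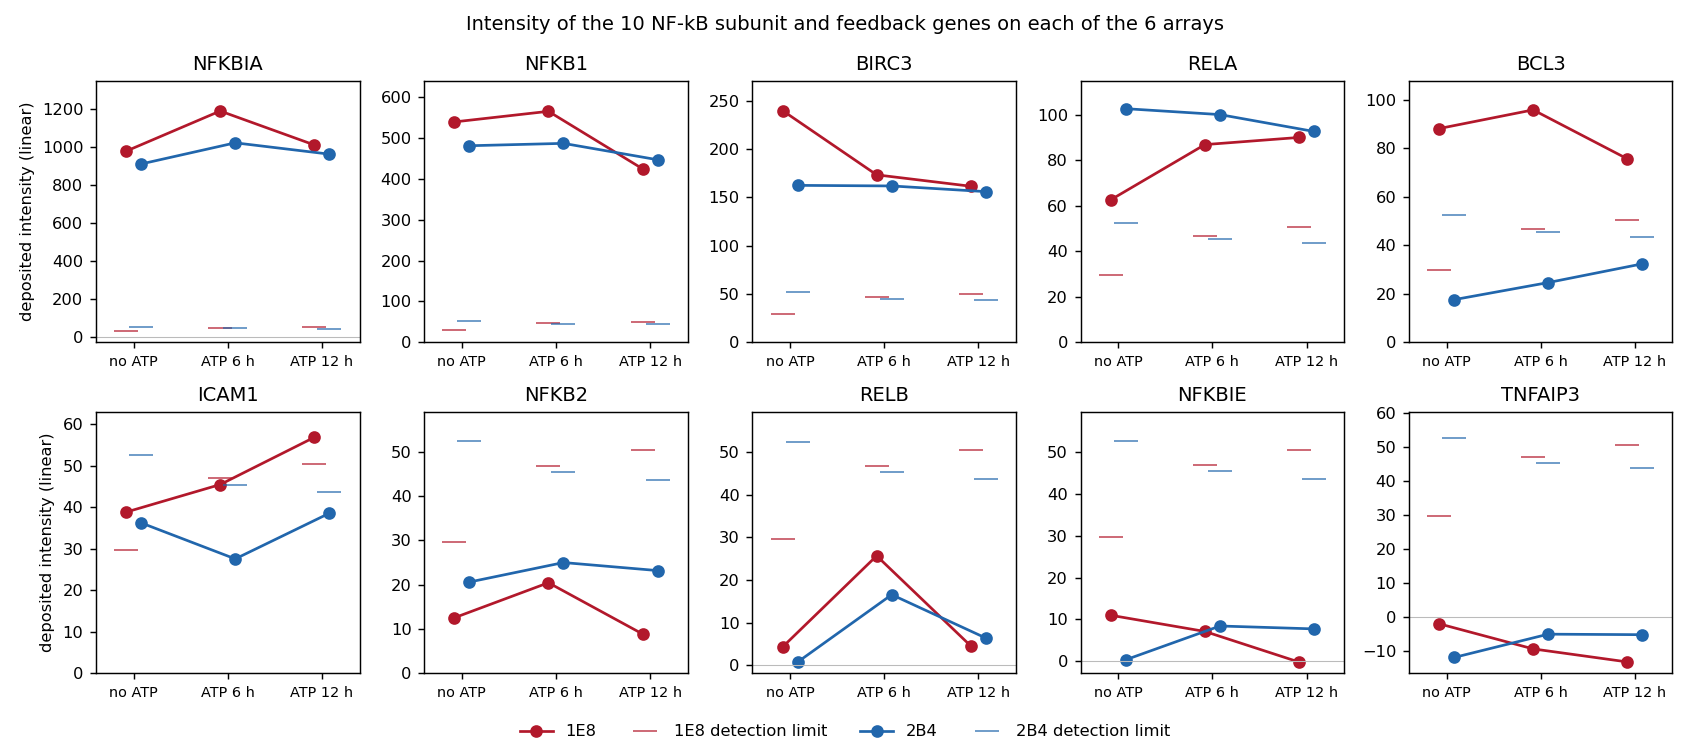
Deposited linear intensity (vertical axis) of each of the 10 members on the 3 arrays of 1E8 (red) and of 2B4 (blue), against condition, with each array's detection limit as a short bar. Each point is 1 array. BCL3 lies above the limit on the 1E8 arrays only, and NFKB2, RELB, NFKBIE and TNFAIP3 lie under it everywhere.

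NFKBIA encodes IkB-alpha, the inhibitor that NF-kB itself induces within minutes and that ends a first wave of nuclear NF-kB. Its intensity in 1E8 was 978 without ATP, 1189.7 at 6 h and 1011 at 12 h. In 2B4 it was 911, 1022 and 962 in the same order. The 6 h array was the highest of its subclone in both, and all 4 ATP arrays lay above the control of their subclone. NFKBIA was the 1 member of the 6 tested with this pattern, which 10.2% of all tested genes also had. The fitted 6 h difference from control was a log2 of 0.22 ± 0.13 (SE of the limma fit over 6 arrays; 95% interval -0.087 to 0.53), with an adjusted p of 0.634. At 12 h it was 0.063 ± 0.13 (adjusted p = 0.924), and the 12 h against 6 h difference was -0.16 ± 0.13 (0.920). None of these passed, although the interval at 6 h spans changes of up to 0.53.

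NFKBIE encodes IkB-epsilon, a slower feedback inhibitor. In 1E8 the intensity was 10.995 without ATP, 7.13 at 6 h and -0.18 at 12 h, and in 2B4 0.38, 8.43 and 7.74. All 6 values lay within the background, so no order among them can be read.

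Among the subunits, NFKB1 encodes p105, the precursor of p50. In 1E8 it had an intensity of 539 without ATP, 565 at 6 h and 424 at 12 h, and in 2B4 481, 487 and 446. Each subclone had its lowest value at 12 h, and the arrays of the subclones overlapped. The 12 h difference from control was -0.22 ± 0.14 (adjusted p = 0.671; 95% interval -0.55 to 0.11) and the 12 h against 6 h difference -0.26 ± 0.14 (0.823). At 6 h it was 0.041 ± 0.14 (0.957), and it came to -0.041 without the 1E8 6 h array.

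RELA encodes p65, the subunit with the main activation domain of the canonical dimer. Its intensity in 1E8 was 62.6 without ATP, 86.8 at 6 h and 90.0 at 12 h. In 2B4 it was 103, 100.0 and 92.6. The 3 1E8 arrays lay below the 3 2B4 arrays, the nearest pair being 90.0 in 1E8 and 92.6 in 2B4, both at 12 h. With arrays scaled to 1 median the 1E8 minus 2B4 difference of this pair was 0.0032, so the subclones overlapped there. The 1E8 control was the lowest of the 6. Its ATP arrays were higher than the control in 1E8, by a log2 of 0.39 and 0.43, and lower in 2B4, with differences of -0.032 and -0.13. Opposite signs at both times, as in RELA or the other way round, were found in 28.6% of all tested genes. The difference between the ATP effects, 1E8 minus 2B4, was 0.49 ± 0.18 (limma, unadjusted p = 0.0382, adjusted p = 0.245), so the difference did not pass. The fitted RELA difference from control over both subclones was 0.18 ± 0.17 at 6 h and 0.15 ± 0.17 at 12 h. It was -0.067 and -0.093 without the 1E8 control array, where 2B4 supplies the only control, and 0.42 and 0.40 without the 2B4 control array. Without the 1E8 12 h array the 12 h value was -0.022.

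The subunits of the alternative pathway were not above background. NFKB2, which encodes p100, the precursor of p52, had intensities of 12.5, 20.4 and 8.84 in 1E8 (no ATP, 6 h, 12 h) and 20.6, 25.0 and 23.2 in 2B4. RELB, the partner of p52, had 4.29, 25.7 and 4.55 in 1E8 and 0.76, 16.6 and 6.40 in 2B4. The 6 h RELB values were the highest of each subclone, but both lay under the limits of 46.9 and 45.3 on those arrays. No fold was therefore computed for either gene.

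BCL3, an atypical member of the inhibitor family that acts in the nucleus with p50 and p52 dimers, was the 1 member that passed a test. Its intensity in 1E8 was 88.2 without ATP, 95.9 at 6 h and 75.7 at 12 h, against 17.6, 24.6 and 32.4 in 2B4. The groups did not overlap, and every 2B4 value lay under the limit of its array. Counting from those limits, BCL3 was at least 1.83-fold higher in 1E8, with measured mean intensities of 86.6 in 1E8 and 24.9 in 2B4. The fitted 1E8 against 2B4 difference was 1.34 ± 0.16 (limma adjusted p = 0.00329; higher in 1E8 in all 3 conditions), a size that depends on background values in 2B4. BCL3 entered the test through its 1E8 arrays alone, so the filter favours a difference here and the call is no independent support for one. The call was lost with values floored at 50 (0.79, adjusted p = 0.0600) and with no filter on dim entries (adjusted p = 0.180). Without the 1E8 control array the difference was 1.19 (adjusted p = 0.00727).

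With ATP, BCL3 differed from control by a log2 of 0.10 and -0.18 in 1E8 (6 h and 12 h) and by 0.28 and 0.53 in 2B4, where both sides are at background. The fitted values were 0.19 ± 0.19 at 6 h (limma adjusted p = 0.804) and 0.17 ± 0.19 at 12 h (0.828). Without the 2B4 control array these became -0.031 and -0.049, and without the 2B4 12 h array the 12 h value was -0.14.

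TNFAIP3 encodes A20, a ubiquitin-editing enzyme that shuts off signalling upstream of IKK and is one of the most inducible NF-kB targets in many cell types. The 1E8 values were -2.02 without ATP, -9.41 at 6 h and -13.2 at 12 h, and in 2B4 -11.9, -5.09 and -5.24. All 6 values lay below 0, on the dim side of the background, so no fold was computed.

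BIRC3 encodes cIAP2, a ubiquitin ligase at TNF receptor complexes and an NF-kB-induced survival factor. The 1E8 intensity was 240.1 without ATP, 173 at 6 h and 162 at 12 h, and in 2B4 163, 162 and 156. The 1E8 control stood above the other 5 arrays, which spanned only 156 to 173. All 4 ATP arrays lay below the control of their subclone, with log2 differences of -0.43 and -0.53 in 1E8 and by -0.00495 and -0.054 in 2B4. BIRC3 was the 1 member of 6 with this pattern, and 17.9% of all tested genes had it. With quantile normalization the 2B4 difference at 6 h was 0.0069, so the pattern was lost there. The fitted differences were -0.22 ± 0.16 at 6 h (limma adjusted p = 0.717) and -0.29 ± 0.16 at 12 h (0.635). Without the 1E8 control array they were 0.0062 and -0.065, and without the 2B4 control array -0.45 and -0.52. The difference between the ATP effects, 1E8 minus 2B4, was -0.45 ± 0.18 (unadjusted p = 0.0445, adjusted p = 0.257).

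ICAM1, an adhesion receptor for leukocyte integrins, was near the limit. Its intensity in 1E8 was 38.8 without ATP, 45.4 at 6 h and 56.8 at 12 h, and in 2B4 36.2, 27.5 and 38.5. It was above the limit on the 1E8 control and 12 h arrays alone, the first of which has the lowest limit. The 3 1E8 arrays lay above the 3 2B4 arrays, the nearest pair being 38.8 in 1E8 and 38.5 in 2B4. The 1E8 against 2B4 difference was 0.33 ± 0.13 (limma unadjusted p = 0.0356, adjusted p = 0.122). ICAM1 entered the test through 1E8 arrays alone, so the filter favours this direction, and with values floored at 50 the difference was 0.061. It was 0.46 with an adjusted p of 0.0303 without either control array, fits in which the remaining control adds nothing to the error. With ATP it stood at -0.049 ± 0.15 at 6 h (0.954) and 0.24 ± 0.15 at 12 h (0.678), and the 6 h value was 0.15 without the 2B4 control array.

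No member passed an ATP contrast. limma called 0 of the 6 tested members, and 0% of the 11101 genes, in the 6 h, the 12 h and the 12 h against 6 h contrast, with adjusted p of 0.634 or more for every tested member. At an unadjusted p under 0.05 it was 0 members in each, against 9.79% of all genes at 6 h, 9.13% at 12 h and 6.93% between the times. With a mean-variance trend limma called 1 gene at 6 h, the target CXCL8 described below. On single arrays, 0 of the 6 members differed from control by 1.5-fold or more at 6 h or 12 h in 1E8, against 8.12% and 7.27% of all genes, or in 2B4, against 4.55% and 5.5%. The plot of single-array differences shows the 24 values between -0.53 (BIRC3 in 1E8 at 12 h) and 0.53 (BCL3 in 2B4 at 12 h).

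**Figure D2:**
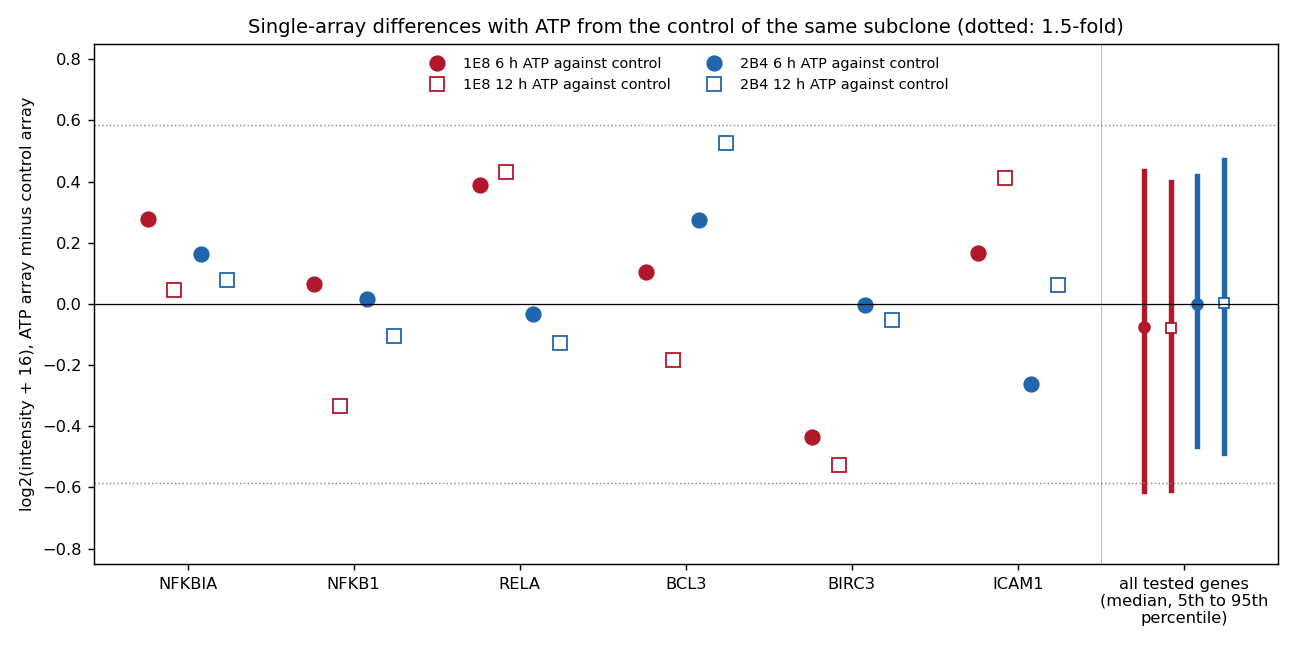
Log2(intensity + 16) of each ATP array minus the control array of its subclone (vertical axis) for the 6 tested members, with the median and the 5th to 95th percentile of all 11101 tested genes at the right. Each point is 1 pair of arrays. NFKBIA is above 0 in all 4 pairs and BIRC3 below 0 in all 4, RELA is above 0 in 1E8 alone, and none passes the dotted 1.5-fold lines.

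Between subclones the background was higher. limma called 1 of the 6 tested members (BCL3) and 17.1% of all genes in 1E8 against 2B4, and 2 members (BCL3 and ICAM1) and 33.3% at an unadjusted p under 0.05. The 1E8 and 2B4 arrays did not overlap in 3 of the 6 (RELA, BCL3 and ICAM1), against 36.1% of all genes. A 1.5-fold difference on single arrays was seen in 2 members without ATP (RELA lower and BCL3 higher in 1E8; 16.8% of all genes), and in BCL3 alone at 6 h (12.6%) and 12 h (15.1%). NFKBIA (0.13 ± 0.11, adjusted p = 0.446), NFKB1 (0.10 ± 0.11, 0.585) and BIRC3 (0.22 ± 0.13, 0.296) did not pass, nor did RELA (-0.27 ± 0.14, 0.227), whose difference was -0.10 without either control array. That of BIRC3 was then 0.068. In the test of the difference between ATP effects, limma called 0 members and 0.00901% of all genes, and 2 members (RELA and BIRC3) and 18.8% had an unadjusted p under 0.05.

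Other genes of the pathway were grouped by role. Of the 6 further subunits and inhibitors, 2 were above the limit on any array. NFKBIZ, which encodes the nuclear inhibitor-like protein IkB-zeta, was higher in 1E8: its intensity was 277, 279 and 260.2 in 1E8 and 157, 122 and 114 in 2B4 (no ATP, 6 h, 12 h), a log2 difference of 0.98 ± 0.12 (limma adjusted p = 0.00389). All 6 arrays were above the limit. The call was lost with values floored at 50 (1.06, adjusted p = 0.0545) and with no filter on dim entries (adjusted p = 0.133). NKRF, a repressor that binds near NF-kB sites, had -0.23 ± 0.14 (0.302). With ATP, NKRF was at -0.44 ± 0.17 at 6 h (0.489) and -0.52 ± 0.17 at 12 h (0.486).

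Of 25 upstream kinases, adaptors and receptors, 20 were tested. With ATP 8 had positive and 12 negative values at 6 h, with a median of -0.054 against -0.035 over all genes, and at 12 h 6 and 14, with a median of -0.087 against -0.036. None passed. The kinase gene RIPK1 (0.27 ± 0.15) and the TNF receptor gene TNFRSF1A (0.21 ± 0.19) had the highest differences from control at 6 h and the IKK-alpha gene CHUK (-0.36 ± 0.16) the lowest at 12 h among those detected on every array. TNFRSF1A had intensities of 714, 1042 and 860 in 1E8 and 836, 769 and 632 in 2B4, above its control with ATP in 1E8 and below it in 2B4, and the difference between these effects was 0.66 ± 0.18 (limma adjusted p = 0.179). Between subclones 0 were called higher and 2 lower in 1E8 (MAP3K8, -0.66 ± 0.13, adjusted p = 0.0184; IKBKE, -0.60 ± 0.13, adjusted p = 0.0252), each above the limit on 1 array only. Over all genes 7.95% were called lower. Neither call held with values floored at 50 or with no filter, and neither gene is tested where all 6 arrays must pass the limit. With 1 of the 6 h arrays left out, MAP3K8 was still called and IKBKE was not. With 1 of the 12 h arrays left out, IKBKE was called and MAP3K8 was not. Of all 11101 genes, 493 and 391 were called lower in these fits. IKBKE was also not called with a mean-variance trend (limma adjusted p = 0.0524). With a mean-variance trend, 1 of the 20 was called in the difference between ATP effects, with a positive value, where 742 of all 11101 genes were called.

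Of 14 further feedback and ubiquitin-editing genes, 7 were tested, and 0 passed in any contrast as fitted to all 6 arrays. With the 1E8 or the 2B4 control array left out, 1 was called lower in 1E8 than in 2B4. Each of these fits called 2567 of all 11101 genes in either direction, so nothing is read from this 1 call. With a mean-variance trend, 1 was called in the difference between ATP effects, with a negative value, where 742 of all 11101 genes were called. TNIP2, a partner of A20, had the highest ATP values, 0.28 ± 0.14 at 6 h (limma adjusted p = 0.582) and 0.25 ± 0.14 at 12 h (0.645). The survival gene IER3 was at 0.21 ± 0.15 at 6 h (0.713) and -0.064 ± 0.15 at 12 h (0.936).

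Among the target genes of NF-kB, 20 of 40 were tested, and limma called 12 higher and 2 lower in 1E8 than in 2B4, where 9.16% of all tested genes were called higher and 7.95% lower, with a median log2 of 0.49 against 0.014 over all genes. The chemokine gene CXCL1 had intensities of 261, 377 and 175 in 1E8 and 7.60, 6.21 and 6.74 in 2B4, at least 5.496-fold higher in 1E8 counting from the limits of the 2B4 arrays, all of which were at background (fitted difference 3.59 ± 0.20, limma adjusted p = 0.000198). CXCL8, deposited as IL8, was higher by 2.09 ± 0.13 (0.000300), with its 2B4 control value under the limit, and the monocyte chemokine gene CCL2 by 1.33 ± 0.15 (0.00327). The cytokine gene IL1B had 22.8, 3.65 and 31.7 in 1E8, all under the limit, and 116, 71.3 and 155 in 2B4, at least 2.63-fold lower in 1E8 (fitted -1.92 ± 0.12, limma adjusted p = 0.000337). CXCL1, CXCL2, TAP1 and LCN2 entered the test through 1E8 alone and IL1B through 2B4 alone, so the filter favours these calls. The list was also chosen with earlier results of these data known, so its counts are no independent support for a difference. Neither the CXCL1 nor the IL1B call held with values floored at 50 (limma adjusted p = 0.0619 and 0.148) or with no filter (0.111 and 0.0900).

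Many targets entered the test through the subclone where they are high. Among the 9 above the limit on all 6 arrays, 5 were called higher in 1E8 (CCL2, CFLAR, PLAU, SQSTM1 and SDC4) and 1 lower (NINJ1), where 14.4% of all 8491 such genes were called and 6.80% were called higher. With values floored at 50, 2 targets were called, and 616 of all 11101 genes. With no filter on dim entries it was 0 targets and 0 of all 30835 genes. Without any 1 of the 4 ATP arrays 9 targets were called, where all genes called numbered 1147 (a 6 h array left out) or 916 (a 12 h array). With ATP, 14 of the 20 targets had positive values at 6 h (median 0.15 against -0.035 over all genes). At 12 h it was 14 again (median 0.089 against -0.036), and none passed at either time. The share of all genes with positive values was not counted, so nothing is read from these counts. CXCL8, a neutrophil chemoattractant named here after its values were seen, had intensities of 210, 757 and 271 in 1E8 and 43.1, 133 and 57.7 in 2B4 (no ATP, 6 h, 12 h), the highest at 6 h in each. Its 6 h difference was 1.55 ± 0.16 (unadjusted p = 2.95e-05, adjusted p = 0.164). It passed with a mean-variance trend (adjusted p = 0.0428) and without any 1 of the 4 ATP arrays (adjusted p between 0.00149 and 0.0326), but not without either control. IL1B, under the limit on every 1E8 array, went the other way, with a 6 h difference of -0.79 ± 0.15 (limma adjusted p = 0.228). Its 12 h against 6 h difference was 1.12 ± 0.15 (0.448), where that of CXCL8 was -1.22 ± 0.16 (0.448). SQSTM1, a stress-inducible autophagy receptor, had the highest 6 h difference (0.50 ± 0.13, adjusted p = 0.289) and CCL2 the lowest (-0.32 ± 0.19, 0.643) among those detected on every array.

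**Figure D3:**
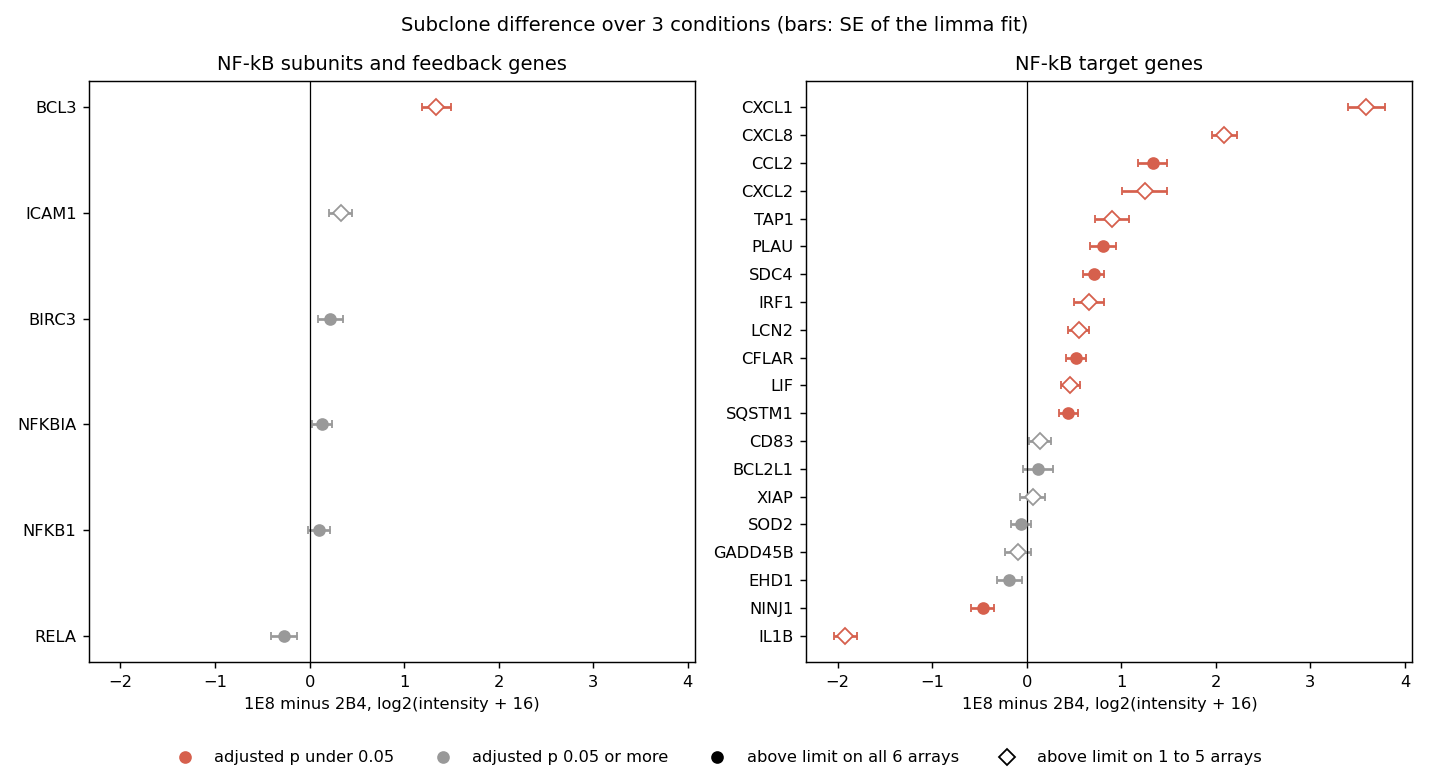
1E8 minus 2B4 difference of log2(intensity + 16) over 3 conditions (horizontal axis) with the SE of the limma fit as bars, for the 6 tested members (left) and the 20 tested target genes (right). Red marks an adjusted p under 0.05, and open diamonds mark genes above the limit on 1 to 5 arrays. BCL3 stands at 1.34 and the other members between -0.27 and 0.33, while 12 target genes are called higher in 1E8, a direction called in 9.16% of all tested genes. Of these 12, CXCL1, CXCL2, TAP1 and LCN2 entered the test through 1E8 arrays alone, so the filter favours their calls. With values floored at 50, 2 targets and 616 of all 11101 genes are called in either direction. With no filter it is 0 targets and 0 of all genes.

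Genes whose pattern over the 6 arrays was most like that of NFKBIA, by Euclidean distance between centred log2 values among 8491 genes detected on every array, were FBRS (distance 0.095), STARD7 (0.11) and FLJ10986 (0.11). STARD7, a lipid transfer protein gene, had 998, 1160.3 and 1029 in 1E8 and 922, 1097 and 949 in 2B4, with its highest value at 6 h in each subclone. For RELA, the member with the widest range of those detected on every array (0.59 on the log2 scale), they were MOSPD3 (0.088), LOC728748 (0.10) and the proteasome gene PSMB2 (0.10). PSMB2 had 1379, 1741 and 1756 in 1E8 and 1970, 1906 and 1920.2 in 2B4, with the 1E8 control again the lowest.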

How the data were processed

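The deposited intensity values are linear, 1 per gene symbol or sequence cluster; per the labels, RNA was extracted with Trizol and amplified as biotinylated cRNA. Which software made them, and from which probes, is not given in the sources used here. These values show a background subtraction (24.0% to 25.5% below 0 on each array) and a common mean (193 to 194). In a further table the names of the 6 signal columns fit no label of a sample, so it was left out.

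Negative intensities were replaced by 0, and limma 3.58.1 in R 4.3.3 was fitted to log2(intensity + 16) by subclone and condition over 6 arrays (2 residual degrees of freedom), or with an added subclone by ATP term (1). A log2 difference on this scale understates the change of dim genes. Benjamini-Hochberg adjusted p under 0.05 over 11101 genes was the threshold. Sequence clusters (3270) and 489 dimmer entries of a shared gene were left out. No group has a replicate: p-values set each difference against how far these samples depart from additivity, not against a spread of replicates. That departure may be technical, and the number of arrays limits the precision. Symbols were updated through RefSeq (17757 current, 3303 older, 13534 unmatched). The fit was tested on simulated data.

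The members and the pathway lists were chosen with earlier results of these data known. Named are all members, up to 4 list genes per contrast that passed or otherwise the 2 highest and 2 lowest above the limit on all arrays, from which the text gives a selection, and the 3 genes nearest in pattern to NFKBIA and to the widest-ranging member. The other target genes are named for their counts after their values were seen. Alternatives covered the offset, a floor, scaling, the filter, a variance trend and each array left out.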

Additional observations from a re-analysis of the deposited data

Results flagged for a closer look

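RELA was singled out because both ATP arrays lay above the control in 1E8 and below it in 2B4. The differences were 0.39 at 6 h and 0.43 at 12 h in 1E8, and -0.032 at 6 h and -0.13 at 12 h in 2B4, on the log2(intensity + 16) scale. The fitted difference between the subclones' ATP effects was 0.49 ± 0.18 with a limma adjusted p of 0.245. Opposite signs at both times, in either direction, were found in 28.6% of all tested genes, a share not split by direction. The 1E8 control array, against which the 1E8 values are taken, had the narrowest background of the 6 (width 8.74 against 12.9 to 15.3), and the part of this in the result was not tested.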

How the results depend on the processing

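No paired analysis was possible because every sample carries replicate number 1, so the number forms no block. The fit itself compares subclones within conditions and conditions within subclones. Members called between subclones numbered 1 as reported and 0 with values floored at 50, with no filter, or with the limit passed on all 6 arrays, where BCL3 is not tested, and between 1 and 2 with an array left out. Genes called between subclones numbered 616 with values floored at 50 and 0 with no filter, and 916 to 2567 with an array left out. For the ATP contrasts, genes called numbered 1 at 6 h with a variance trend, and with an array left out 5 to 49 at 6 h, 0 to 24 at 12 h and 0 to 6 between the times. For the ATP effect in 1E8 minus 2B4 they numbered 365 with an offset of 50, 13 with arrays scaled to 1 median, 284 with the limit passed on all 6 arrays, 742 with a variance trend, and 0 with values floored at 50, with quantile normalization or with no filter. No member was called in these ATP contrasts under any alternative run. Members at least 1.5-fold apart numbered 1 in 2B4 at 12 h with quantile normalization, and 1 between the controls with an offset of 50. The shares of all genes (5.5% and 16.8%) were counted for the main setting only, so nothing is read from these counts. Leaving out an array turned the sign of uncalled log2 values: at 6 h NFKB1 lay between -0.041 and 0.12, RELA between -0.067 and 0.42, BCL3 between -0.031 and 0.41, BIRC3 between -0.45 and 0.0062 and ICAM1 between -0.24 and 0.15. At 12 h RELA lay between -0.093 and 0.40 and BCL3 between -0.14 and 0.48, and BCL3 came to -0.11 with values floored at 50. Between the times RELA lay between -0.20 and 0.15, BCL3 between -0.33 and 0.29 and BIRC3 between -0.20 and 0.059. The NFKB1 interaction came to 0.016 with arrays scaled to 1 median and 0.030 with quantile normalization. The interaction could not be refitted without an array. The cause was not tested. Signals near the background limit the dim members.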
